A study of Sorghum bicolor with 16 samples.

Results

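Endosperm of the waxy sorghum mutant wxe was compared with that of its parent BTx623 (WT) at 21 DPA (days post anthesis), the oldest of the 4 ages in the series. It addresses what the loss of GBSSI activity does to gene expression late in grain filling. The comparison rests on 4 of the 16 libraries, 2 of WT and 2 of wxe. Of the 34129 genes in the table, 14966 had a mean above 1 FPKM (fragments mapped to a gene, scaled by transcript length and by the mapped reads of the library) in either genotype at 21 DPA, and these were tested. At that limit, SbAGA1 lay just outside, with a mean of 0.981 FPKM in WT and 0.462 in wxe, and the sucrose transporter Sobic.001G488700 lay just inside, with 1.08 in WT and 2.02 in wxe. The WT is the reference genome line. The mutant is line 15M2-1184, made from BTx623 with ethyl methane sulfonate (EMS), and only plants homozygous for a stop-gained allele in the last exon of the granule-bound starch synthase gene GBSSI were used. Both lines were field-grown in neighbouring rows under bags that kept out foreign pollen. Each replicate pooled middle portions of 3 panicles with the same flowering day, and the endosperm was cut out of frozen seeds. The mutant line is a single EMS line that carries other mutations, so an effect of wxe and an effect of the line cannot be told apart.

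Starch of the cereal endosperm is a mixture of amylose, which is nearly linear, and amylopectin, which is branched. Sucrose that enters the grain is split by sucrose synthase, its glucose is turned into ADP-glucose by AGPase (ADP-glucose pyrophosphorylase), and starch synthases and branching enzymes build the polymers from ADP-glucose. GBSSI, bound to the starch granule, makes amylose, and grain without its activity is called waxy. The same cells fill with kafirins, the prolamin storage proteins of sorghum.

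The targeted gene was lower in the mutant. SbGBSSI (Sobic.010G022600, chromosome 10) had 8807 and 8599 FPKM in the WT libraries and 3919.7 and 4888 FPKM in the wxe libraries. Both wxe libraries lay below both WT libraries, at 8703 ± 147 FPKM (SD, n = 2) in WT and 4404 ± 685 in wxe, which was 0.506 of the WT level. The log2 fold change was -0.99 (SE, its standard error, 0.16, and limma adjusted p = 0.00289), and the call held in every alternative and without each library. It was lower in wxe at the other ages too, by -1.27 at 6 DPA, -0.67 at 11 DPA and -0.70 at 16 DPA, where the adjusted p was 0.0526. No difference between the effect at 21 DPA and that at another age passed the test, and the smallest adjusted p of those 3 differences was 0.347.

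The 4 libraries of 21 DPA were alike in content and in estimated depth. Their FPKM summed to between 931849 and 993180, and the 10 most abundant genes took 41.0% to 44.2% of that sum. Read counts are not given, but the steps of 1 read in genes under 0.3 FPKM put the depth of the other libraries at 0.936, 0.971 and 1.033 of that of WT replicate 1. This estimate was sought only in a fixed range around equal depth, so a difference beyond that range could not have been found. Pearson's r of log2(FPKM + 1) across the tested genes was 0.985 between the WT libraries, 0.987 between the wxe libraries and 0.969 to 0.973 between genotypes. The endosperm markers were abundant in every library, with SbGBSSI at 3919.7 FPKM or more, the branching enzyme gene SbSBEIIb at 461 or more, and the kafirin gene Sobic.009G001600 at 78816 or more. Globulin-1 and globulin-2, whose maize counterparts are storage proteins of the embryo, were present as well and differed widely between the WT libraries, as described with the storage proteins.

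At 21 DPA, 975 genes were called different in wxe, which was 6.51% of the 14966 tested. Calls needed a limma p below 0.05 after Benjamini-Hochberg adjustment together with a change of 0.58 or more in size on log2(FPKM + 1), a scale that understates the change of low genes. Of these, 536 were higher in wxe (3.58%) and 439 were lower (2.93%). Most changes were moderate. The median log2 fold change was 0.79 in the genes called higher and -0.79 in those called lower, and over all tested genes it was 0.01. A log2 fold change of at least 1 was reached by 129 genes called higher and 97 called lower, and one of at least 2 by 9 and 5 genes. The genes called higher had a median of 3.85 FPKM in WT and 8.38 in wxe. The genes called lower had a median of 11.8 FPKM in WT and 6.22 in wxe. Over all tested genes the median was 7.89 to 8.07 FPKM in the 4 libraries. The same values set the filter and the calls, so a lower WT level in genes called higher is partly built in. In bulk endosperm, fewer cells of a type and less RNA per cell cannot be told apart.

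The share of genes called was larger among abundant genes. It was 6.12% of the 5162 genes with 1 to 5 FPKM, 6.18% between 5 and 20 FPKM, 6.53% between 20 and 100 FPKM, 10.9% of the 764 genes between 100 and 1000 FPKM and 14.9% of the 67 genes above 1000 FPKM. By chromosome it ran from 5.62% on chromosome 4 to 7.52% on chromosome 10, which holds SbGBSSI. At most 4 neighbouring tested genes were called higher in a row, and at most 2 were called lower.

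Each of the 975 called genes had both wxe libraries on the same side of both WT libraries, as did 53.6% of all tested genes. A further 762 genes passed the adjusted p but not the fold threshold. For any single gene, exchanging the 4 libraries in an exact two-sided permutation test gives 0.333 as its smallest p, and the calls therefore depend on spread that limma pools over genes and groups. Without wxe replicate 2, 587 genes were called, 309 higher and 278 lower. Without WT replicate 1, 337 were called higher, and without WT replicate 2, 264 were called lower.

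**Figure D1:**
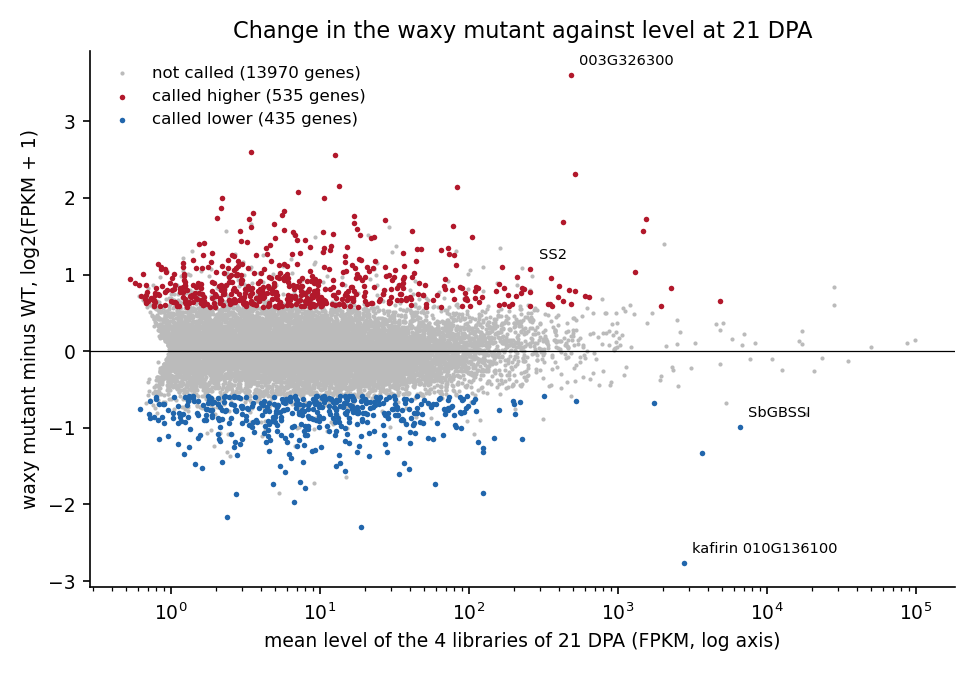
Log2 fold change of the waxy mutant wxe against WT at 21 DPA (vertical axis, log2(FPKM + 1)) by the mean level of the 4 libraries (horizontal axis, FPKM, log axis). Each point is a tested gene, red where called higher (535 shown), blue where called lower (435 shown) and grey where not called (13970 shown); the 26 genes listed at 0 in both libraries of 1 genotype are left out. SbGBSSI and the kafirin gene Sobic.010G136100 lie among the abundant genes called lower, at -0.99 and -2.76.

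Among the starch genes named by ID in the study, SbGBSSI alone was called lower. Of 8 listed genes, 7 were tested, 2 were called higher and 1, SbGBSSI, was called lower, beside 3.58% and 2.93% of all tested genes. Their median log2 fold change was 0.46, against 0.01 over all tested genes. These genes were picked by the study on these same samples, as were those of the sugar, storage protein, lipid, transcription factor and mutated gene lists that follow, so the lists are not independent evidence of a direction.

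The AGPase step held both rises. Sobic.002G160400 (chromosome 2), annotated to the step from glucose 1-phosphate to ADP-glucose, had 108 and 116 FPKM in WT and 188 and 199 in wxe. The genotypes stood well apart, and the rise was 1.73-fold in mean FPKM, or 0.79 on the log2 scale (SE 0.11, limma adjusted p = 0.00177). The same gene was called higher at 16 DPA, by 0.80 (limma adjusted p = 0.00806), and lower at 6 DPA, by -0.71 (limma adjusted p = 6.32e-04). SbAGPLS2 (Sobic.009G245000, chromosome 9), a large subunit of AGPase, was far less abundant. Its values were 0.990 and 1.499 FPKM in WT and 3.38 and 2.07 in wxe, a log2 fold change of 0.72 (SE 0.20, limma adjusted p = 0.0362). This call was lost in most of the alternatives, among them without WT replicate 1 (0.55, limma adjusted p = 0.201), without WT replicate 2 (0.88, limma adjusted p = 0.05001), without wxe replicate 1 (0.46, limma adjusted p = 0.222) and with a replicate block (limma adjusted p = 0.0954).

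SbAGPLS1 (Sobic.003G230500), the abundant large subunit gene, overlapped between the genotypes, with 989.8 and 962 FPKM in WT and 1033 and 989 in wxe. The difference was 0.05 (SE 0.16, limma adjusted p = 0.875). On the FPKM scale, which is per transcript length, the mean level in WT was 976 for SbAGPLS1 and 1.24 for SbAGPLS2, so the call in this pair was on the minor gene.

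Among the polymer-building enzymes, SbSSIIC (Sobic.001G239500), a soluble starch synthase, had 7.59 and 7.86 FPKM in WT and 11.5 and 12.5 in wxe. The libraries did not overlap and the limma adjusted p was 0.00980, but the log2 fold change of 0.57 (SE 0.12) fell just short of the fold threshold. It was past the threshold with a pseudocount of 0.1 (0.63), with the fold threshold set on mean FPKM, without WT replicate 2 (0.59, limma adjusted p = 0.0374) and without wxe replicate 1 (0.63, limma adjusted p = 0.0307). SbSBEIIb (Sobic.004G163700), the branching enzyme of amylopectin, had 510.5 and 461 FPKM in WT and 666 and 673 in wxe. The study lists an amino acid change in this gene for the mutant line. Both wxe libraries were higher, by 0.46 (SE 0.14), with an adjusted p of 0.0556 that missed the threshold. SbSSIIIa (Sobic.007G068200), another soluble synthase, had 72.4 and 63.8 FPKM in WT and 67.2 and 59.1 in wxe, and the genotypes overlapped (-0.11, SE 0.30, limma adjusted p = 0.858). SbSSIIIb (Sobic.006G221000) was at 0.341 to 0.528 FPKM in the 4 libraries and was not tested.

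The tested sugar genes all had higher means in wxe, whereas the listed ones under the limit for testing all had lower means in wxe. Of 9 listed genes, 5 were tested, and all 5 had a positive log2 fold change (0.07 to 1.07). Their median was 0.53, against 0.01 over all tested genes, and the share of all tested genes with a positive change was not computed. Of the 5, 1 was called higher and 0 lower, beside 3.58% and 2.93% of all tested genes. At an unadjusted p below 0.05 in limma, 3 were higher and 0 lower, a level reached in either direction by 4072 of all 14966 tested genes. The gene called was SS2 (Sobic.001G344500, chromosome 1), a sucrose synthase, with 142 and 192 FPKM in WT and 302 and 399 in wxe. Its mean rose 2.10-fold, from 167 ± 35.6 FPKM (SD, n = 2) to 350.5 ± 68.6, a log2 fold change of 1.07 (SE 0.16, limma adjusted p = 0.00220). The call held in every alternative and without each library.

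SS2 was also called higher in wxe at 11 DPA, by 0.68 (limma adjusted p = 0.00717), and lower at 6 DPA, by -0.74 (limma adjusted p = 0.00412). The second sucrose synthase gene, SS3 (Sobic.001G378300), had 10.8 and 9.77 FPKM in WT and 16.1 and 14.4 in wxe. Its difference of 0.53 passed the adjusted p (0.0238) but not the fold threshold. SS2 was thus the more abundant of the pair.

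UGPase (Sobic.002G291200, UTP glucose-1-phosphate uridylyltransferase), which links UDP-glucose to glucose 1-phosphate, had 323 and 321 FPKM in WT against 339 and 357 in wxe (0.11, SE 0.10, limma adjusted p = 0.548). The sucrose transporter Sobic.001G488700 had 1.18 and 0.983 FPKM in WT against 2.38 and 1.66 in wxe (0.53, limma adjusted p = 0.0695), and was called higher only with a pseudocount of 0.1 (0.83, limma adjusted p = 0.0366). SbAGA2 (Sobic.002G075900), of raffinose metabolism, overlapped between the genotypes, with 61.5 and 76.3 FPKM in WT against 70.8 and 73.1 in wxe. The sugar transporters SbSWEET1 and SbSWEET16, invertase 3, which cleaves sucrose, and SbAGA1 were all under the limit for testing. Of these, SbAGA1 (Sobic.002G075800) had 1.002 and 0.960 FPKM in WT against 0.488 and 0.435 in wxe. Invertase 3 (Sobic.004G004800) had 0.283 and 0.377 FPKM in WT against 0.145 and 0.182 in wxe. Both genes were thus lower in both wxe libraries, at levels near the floor. SbSWEET1 and SbSWEET16 overlapped between the genotypes and ranged from 0 to 0.854 FPKM over the 4 libraries.

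**Figure D2:**
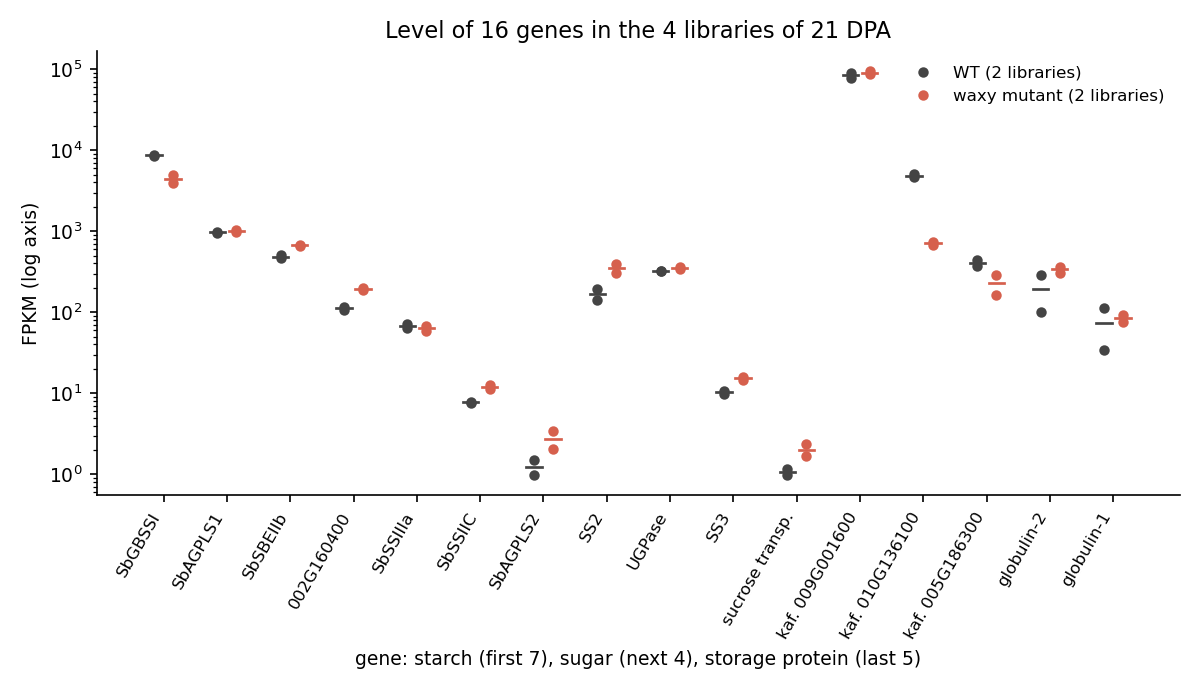
FPKM (vertical axis, log axis) of 16 starch, sugar and storage protein genes in each library of 21 DPA, 2 WT libraries in dark grey and 2 wxe libraries in red, with a bar at each mean. The wxe points lie below the WT points for SbGBSSI and for the kafirin genes Sobic.010G136100 and Sobic.005G186300 and above them for Sobic.002G160400 and SS2, and the 2 WT points of globulin-1 and globulin-2 lie far from each other.

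The storage protein genes examined here did not move together. Of 3 genes annotated as kafirin, 1 was called lower and 0 were called higher, beside 2.93% and 3.58% of all tested genes. They were included because earlier results on these data had singled them out, so they do not stand for the kafirin family. The study reports on further kafirin genes, which were not examined here. Sobic.010G136100 (chromosome 10) had 5073 and 4621 FPKM in WT and 681 and 744 in wxe. It fell to 0.147 of the WT mean, a log2 fold change of -2.76 (SE 0.37, limma adjusted p = 0.00121), and the call held in every alternative and without each library. Its course with age was uneven. At 6 DPA it had 49.6 and 133 FPKM in WT and 0.313 and 0.999 in wxe, and at 11 DPA the genotypes overlapped, at 7654 ± 1762 FPKM (SD, n = 2) in WT and 7814 ± 1635 in wxe. At 16 DPA the means were 5922 ± 1354 FPKM in WT and 2645 ± 355 in wxe (-1.15, limma adjusted p = 0.153). From 16 to 21 DPA the mean in WT went from 5922 to 4847 FPKM and that in wxe from 2645 to 712.

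Sobic.009G001600, another kafirin gene and the most abundant gene named here, overlapped between the genotypes, with 89204 and 78816 FPKM in WT and 95041 and 86264 in wxe. Its difference was 0.11 (SE 0.33, limma adjusted p = 0.868). The third kafirin gene, Sobic.005G186300, had 368 and 442 FPKM in WT and 292 and 161 in wxe, a log2 fold change of -0.89 (SE 0.27, limma adjusted p = 0.0521). It passed the threshold without wxe replicate 1 (-1.31, limma adjusted p = 0.0183), with a filter at 5 FPKM (limma adjusted p = 0.0458), with quantile normalization (limma adjusted p = 0.0349) and with median-ratio scaling (limma adjusted p = 0.0470).

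Neither globulin gene was called, and both had 0 calls at an unadjusted p below 0.05 in limma as well. Globulin-2 (Sobic.001G059800) had 101 and 285 FPKM in WT and 367 and 308 in wxe, a log2 fold change of 0.98 with a standard error of 0.49 (limma adjusted p = 0.220). Globulin-1 (Sobic.001G144900) had 34.1 and 112 FPKM in WT and 75.03 and 93.2 in wxe, so that the wxe libraries lay between the WT libraries. In both genes WT replicate 1 held the lowest value of the 4 libraries. Without it the median log2 fold change of the pair was -0.09, and without WT replicate 2 it was 1.499. As the only embryo markers that could be read, they summed to 135 FPKM in WT replicate 1, 398 in WT replicate 2, 442 in wxe replicate 1 and 401 in wxe replicate 2. Their part in the other results was not tested.

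The 2 lipid genes were higher in both wxe libraries without passing the test. Genotypes without overlap, in either direction, were seen in 53.6% of all tested genes. KCS1 (Sobic.001G482300), a 3-ketoacyl-CoA synthase of fatty acid elongation, had 0.509 and 0.622 FPKM in WT and 1.80 and 2.47 in wxe (0.99, SE 0.31, limma adjusted p = 0.0562). Its means were 0.565 FPKM in WT and 2.13 in wxe, so it passed the limit for testing only through wxe. The higher value of KCS1 in wxe is therefore partly built in. MCAT (Sobic.001G403400), which loads malonyl groups onto acyl carrier protein for fatty acid synthesis, had 44.7 and 52.6 FPKM in WT and 58.5 and 63.1 in wxe (0.32, SE 0.10, limma adjusted p = 0.0549). Both were at an unadjusted p below 0.05, as were 4072 of all 14966 tested genes. With a pseudocount of 0.1, which gives low genes more weight, KCS1 was called higher (1.73, limma adjusted p = 0.0126).

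Of the transcription factor genes listed, a single B3 gene was called, and the others tested differed in either direction without a call. NAC factors form a plant-specific family, and members of it activate starch and storage protein genes in maize endosperm. Of the 4 NAC genes, 0 were called, beside 6.51% of all tested genes. In limma, 2 of the 4 passed the adjusted p and were at an unadjusted p below 0.05. That unadjusted level was reached by 4072 of the 14966 tested genes. Sobic.009G086800 had 331 and 323 FPKM in WT and 442 and 452 in wxe (0.45, SE 0.11, limma adjusted p = 0.0194), and Sobic.002G192600 had 183 and 199 in WT and 254 and 248 in wxe (0.39, limma adjusted p = 0.0239). Both were thus higher by less than the fold threshold. Sobic.005G056300 went from 112 ± 4.58 FPKM (SD, n = 2) to 123 ± 0.157 (0.14, limma adjusted p = 0.629), and Sobic.003G105600 from 546 ± 30.2 to 468 ± 14.5 (-0.22, limma adjusted p = 0.385).

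Of 8 other transcription factor genes, 7 were tested, 1 was called higher and 0 lower, beside 3.58% and 2.93% of all tested genes. At an unadjusted p below 0.05 in limma, 2 were higher and 3 lower, against 4072 of the 14966 tested genes in either direction. The gene called was Sobic.007G083900 (chromosome 7), of the B3 family, which includes regulators of seed maturation. It had 1.86 and 3.74 FPKM in WT and 5.37 and 7.12 in wxe, a log2 fold change of 0.97 (SE 0.20, limma adjusted p = 0.00942). At 16 DPA it was called higher as well, by 1.21 (limma adjusted p = 0.0141), from 4.58 ± 0.341 FPKM (SD, n = 2) to 11.8 ± 0.102. At 21 DPA the call was lost without WT replicate 1 (0.60, limma adjusted p = 0.0551), without wxe replicate 2 (0.79, limma adjusted p = 0.0837) and with 21 DPA fitted alone (limma adjusted p = 0.0922).

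The bZIP gene Sobic.002G055000, of a family that includes activators of prolamin genes in maize, had 129 and 119.5 FPKM in WT and 88.2 and 81.3 in wxe (-0.54, SE 0.11, limma adjusted p = 0.0111), short of the fold threshold. It passed without WT replicate 2 (-0.60, limma adjusted p = 0.0316), without wxe replicate 1 (-0.60, limma adjusted p = 0.0331) and with quantile normalization (-0.64). The ZF-HD (zinc finger homeodomain) gene Sobic.005G019800 had 269 and 238 FPKM in WT and 182 and 189 in wxe (-0.45, limma adjusted p = 0.0197). The MYB gene Sobic.002G308400 had 13.1 and 11.5 FPKM in WT and 16.4 and 18.4 in wxe (0.47, limma adjusted p = 0.0268). These 3 genes thus had genotypes that did not overlap and changes under the fold threshold. Of the rest, the bZIP gene Sobic.002G054800 was lower in both wxe libraries (-0.36, limma adjusted p = 0.121), the ERF (ethylene response factor) genes Sobic.007G147300 (49.0 to 51.4 FPKM over the 4 libraries) and Sobic.009G170800 (3.92 to 8.83) overlapped between the genotypes, and the MYB gene Sobic.003G267400 ranged from 0 to 0.328 FPKM and was not tested.

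The study named 4 genes with large-effect background mutations in the mutant line, chosen for being lower in wxe at all time points on these samples. All 4 were called lower at 21 DPA, beside 2.93% of all tested genes. Sobic.008G013000 (chromosome 8), annotated only as an expressed protein, had 27.7 and 24.9 FPKM in WT and 10.2 and 13.3 in wxe (-1.11, SE 0.13, limma adjusted p = 5.85e-04). Sobic.001G175000 (chromosome 1), which encodes a jmjC domain protein, a domain of histone demethylases, had 6.17 and 5.80 FPKM in WT and 2.40 and 2.74 in wxe (-0.97, SE 0.13, limma adjusted p = 0.00115). The calls of both genes held in every alternative and without each library.

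The C2H2 zinc finger gene Sobic.001G501800 had 17.7 and 19.5 FPKM in WT and 11.8 and 12.1 in wxe. Its log2 fold change of -0.60 (SE 0.09, limma adjusted p = 0.00186) lay near the fold threshold, and the call was lost without WT replicate 2 (-0.53, limma adjusted p = 0.0148) and with quantile normalization (-0.57). The tetratricopeptide-repeat thioredoxin-like gene Sobic.003G017500 had 1.92 and 2.63 FPKM in WT and 1.17 and 0.849 in wxe (-0.70, SE 0.13, limma adjusted p = 0.00601). That call was lost without WT replicate 2 (-0.54, limma adjusted p = 0.0442), without wxe replicate 2 (-0.59, limma adjusted p = 0.0548) and with 21 DPA fitted alone (limma adjusted p = 0.108).

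Over the 4 ages, these 4 genes did not behave alike here, though the study, using Cuffdiff, reports all 4 as lower at all time points. Sobic.008G013000 and Sobic.003G017500 were called lower in wxe at each of 6, 11, 16 and 21 DPA. Sobic.001G501800 was called lower at 11, 16 and 21 DPA, and at 6 DPA its change of -0.55 passed the adjusted p (5.95e-04) but not the fold threshold. The jmjC gene Sobic.001G175000 was called higher in wxe at 6 DPA, from 22.0 ± 0.142 FPKM (SD, n = 2) to 39.7 ± 8.04, and at 11 DPA, from 3.92 ± 0.0877 to 8.55 ± 0.967. Its effect at 21 DPA differed from that at 6 DPA by -1.78 and from that at 11 DPA by -1.92 (adjusted p = 8.02e-05 and 1.64e-04 in limma's test of the difference).

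**Figure D3:**
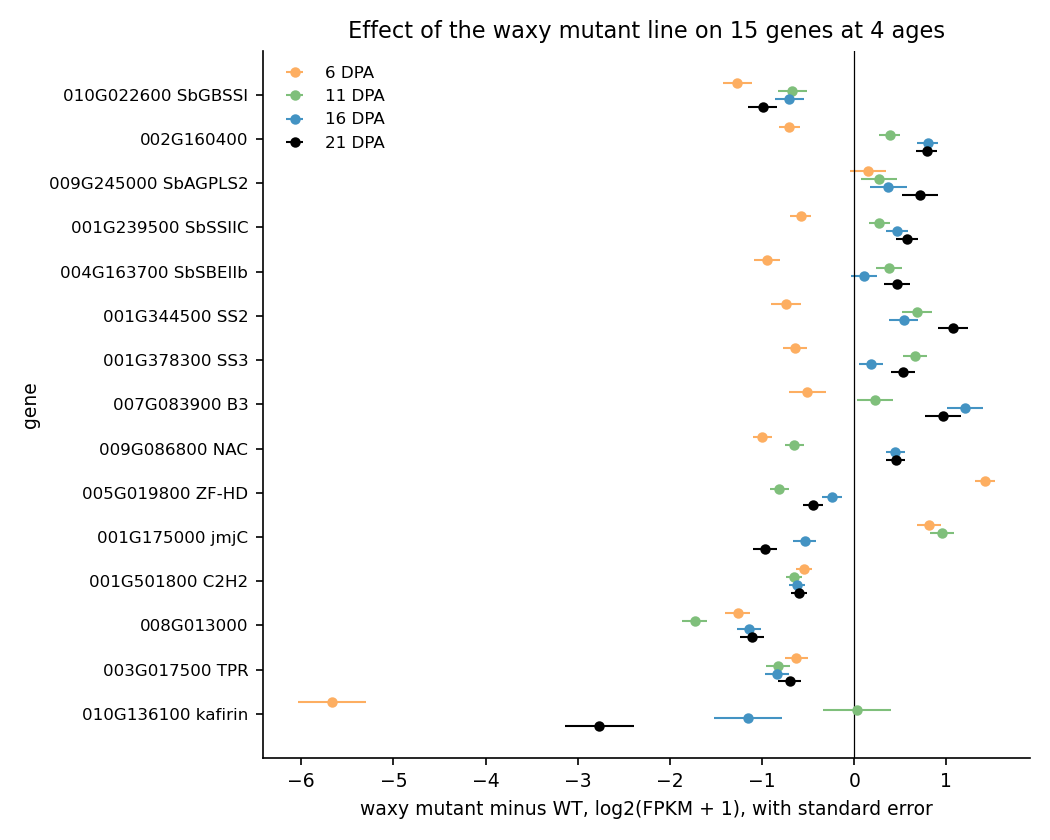
Log2 fold change of wxe against WT (horizontal axis, log2(FPKM + 1), with the standard error, n = 2 libraries a group) for 15 named genes at 6, 11, 16 and 21 DPA. SbGBSSI and 3 of the 4 genes with background mutations lie left of 0 at each age, while Sobic.002G160400, SS2, SS3 and SbSBEIIb lie left of 0 at 6 DPA and right of it at 21 DPA.

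Some of the largest differences were in genes listed at 0 in a whole genotype. The FPKM table carries no annotation for the 4 genes that follow, and a value of 0 in it may be a failed estimate. Sobic.004G211866 (chromosome 4) had 499 and 580.2 FPKM in wxe, whereas both WT libraries listed it at 0. It was also listed at 0 in all 12 libraries of 6, 11 and 16 DPA, in both genotypes. The reverse was seen for Sobic.008G054800 (chromosome 8), at 9.70 and 13.7 FPKM in WT, 0 in both wxe libraries and 0 in all 12 libraries of the other ages. Of the 975 genes called, 1 higher and 4 lower had such zeros. Among the other genes with such zeros, Sobic.004G193600 was at 2.80 and 11.3 FPKM in WT and listed at 0 in wxe (limma adjusted p = 0.02). That call did not hold once weakly expressed genes were also tested (limma adjusted p = 0.0572), nor without WT replicate 2 (limma adjusted p = 0.137), without wxe replicate 1 (limma adjusted p = 0.0772) and without wxe replicate 2 (limma adjusted p = 0.0937).

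The second-largest rise was in an abundant gene read in every library. Sobic.003G326300 (chromosome 3) had 76.3 and 68.6 FPKM in WT and 853 and 930.0 in wxe, a 12.3-fold higher mean and a log2 fold change of 3.60 (SE 0.22, limma adjusted p = 4.06e-06). Its WT mean went down from age to age, and its wxe mean went up from 6 to 11 DPA and then down. At 6, 11 and 16 DPA the WT mean ran through 4919 ± 88.8, 2671 ± 277 and 284 ± 69.1 FPKM (SD, n = 2), and over the same ages the wxe mean ran through 2652 ± 885, 6608 ± 385 and 1275 ± 71.9. The mutant was therefore lower at 6 DPA (-0.93, limma adjusted p = 0.00642) and higher at 11 DPA (1.31, limma adjusted p = 9.54e-04) and 16 DPA (2.19, limma adjusted p = 9.07e-04).

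The genes called at 21 DPA were then followed in the libraries of the other ages, which did not enter the 21 DPA difference, although all ages share the spread of each gene in the model. Those called higher at 21 DPA were mostly higher at 16 DPA too. Of the 536, 512 were tested at 16 DPA, and 88.7% of these had a positive log2 fold change, with a median of 0.41, against 46.5% and -0.02 over all genes tested at both ages. At 16 DPA few genes were called at all, 0.674% of the 14990 tested higher and 0.314% lower. Even so, 66 of the 536 were called higher there, 12.9% of those tested and 65.3% of the 101 genes called higher at 16 DPA, and 0 were called lower in limma (297 were higher and 2 lower at an unadjusted p below 0.05, beside 1101 and 1085 of the 14294 genes tested at both ages). Since the genes were chosen by their difference at 21 DPA, its size there cannot be set against that at another age.

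At the younger ages these genes showed no common direction. At 11 DPA, 57 of the 512 tested were called higher and 69 lower, with a median of 0.00, beside shares of 5.78% and 12.1% over all genes tested at that age. At 6 DPA, 66 of the 482 tested were called higher and 45 lower, with a median of -0.05, beside 14.4% and 5.15% over all genes tested then. As shares, these genes had 11.1% higher and 13.5% lower at 11 DPA, and 13.7% and 9.34% at 6 DPA. Over all genes tested at both 11 and 21 DPA, 5.21% were called higher and 11.3% lower at 11 DPA. Over those tested at both 6 and 21 DPA, it was 9.35% and 5.66% at 6 DPA. Of the 536 genes, 307 (57.3%) were called at 21 DPA and at no other age, and 3 were called higher at all 4 ages. A gene not tested at another age counted as not called there. The matching share over all tested genes was not computed. The effect differed between 21 and 16 DPA in only 20 of 15662 genes, so the count does not show effects confined to 21 DPA.

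The genes called lower at 21 DPA had a different past. At 11 DPA, 382 of the 439 were tested, and 91.4% of these had a negative log2 fold change, with a median of -0.80, against 48.3% and 0.02 over all genes tested at both ages. Of them, 244 (63.9%) were called lower at 11 DPA and 7 (1.83%) higher, beside 11.3% and 5.21% of all genes tested at both ages. These 244 were 12.7% of the 1920 genes called lower at that age. At 6 DPA the sign was turned. There, 79.0% of the 352 tested had a positive log2 fold change, with a median of 0.43, against 45.0% and -0.04 over all genes. Of the 352, 134 (38.1%) were called higher and 19 (5.40%) lower, beside 9.35% and 5.66% of all genes tested at both ages.

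At 16 DPA, 79.4% of the 394 genes tested were negative, with a median of -0.20, against 53.5% and -0.02 over all genes. Of the 394, 20 (5.08%) were called lower and 1 (0.254%) higher, beside 0.315% and 0.644% of all genes tested at both ages. Those 20 were 42.6% of the 47 genes called lower at 16 DPA. A run of higher at 6 DPA and lower at both 11 and 21 DPA was shown by 107 of the 439 genes. The share of all tested genes with that run was not computed. Of the 439, 152 (34.6%) were called at 21 DPA and at no other age, and 4 were called lower at all 4 ages. Here too, untested genes counted as not called, and the matching share over all tested genes was not computed.

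**Figure D4:**
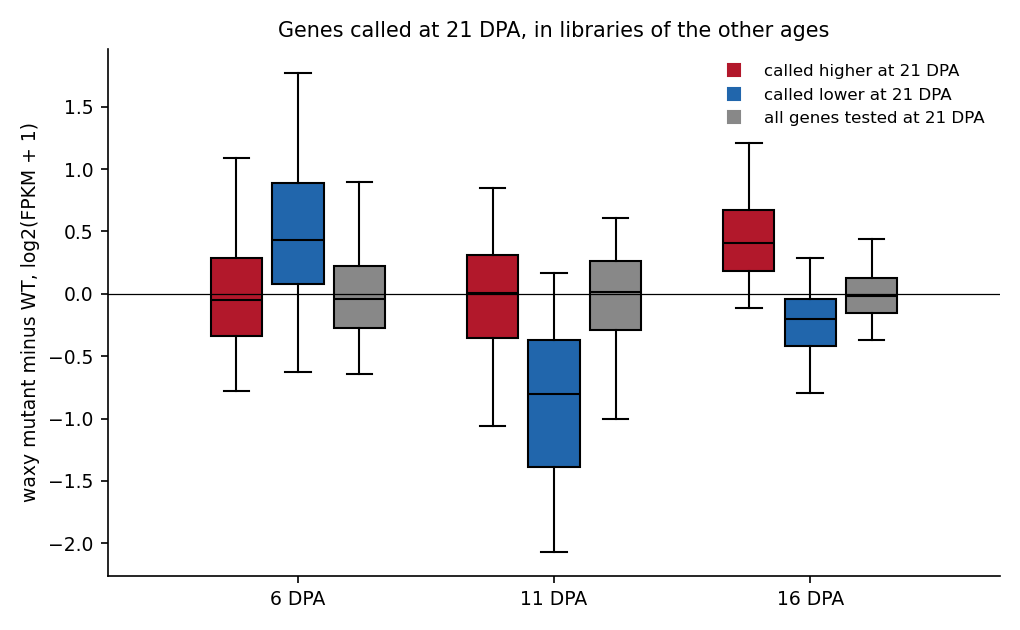
Log2 fold change of wxe against WT at 6, 11 and 16 DPA (vertical axis, log2(FPKM + 1)) of the genes called higher (red) or lower (blue) at 21 DPA and of all genes tested at 21 DPA (grey), each over the genes also tested at the age shown. Boxes span the quartiles with a line at the median, and whiskers the 5th to 95th percentile of genes. The red box lies above 0 at 16 DPA (median 0.41), and the blue box lies above 0 at 6 DPA (median 0.43) and below it at 11 DPA (median -0.80).

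The course of both sets in WT endosperm before 21 DPA was followed as well. Of the genes called higher in wxe at 21 DPA, 415 of 536 (77.4%) fell in WT from 11 to 16 DPA in mean log2(FPKM + 1), with a median change of -0.54. Over all tested genes 46.8% fell, with a median change of 0.04. In wxe 63.8% of the genes called higher fell over that interval, with a median change of -0.25, against 48.7% and 0.01 over all tested genes. Among 6, 11 and 16 DPA, the WT level of these genes peaked at 6 DPA in 45.0%, while 40.3% peaked at 11 DPA and 14.7% at 16 DPA, against 33.1%, 26.6% and 40.2% over all tested genes.

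Of the genes called lower, 345 of 439 (78.6%) rose in WT from 6 to 11 DPA, with a median change of 0.73, against 53.3% and 0.05 over all tested genes. Their WT level was highest at 11 DPA in 47.2% and at 6 DPA in 16.4%, against 26.6% and 33.1% over all tested genes. From 11 to 16 DPA they fell in 57.4% in WT (median -0.13) and rose in 62.2% in wxe (median 0.22). Over all tested genes, 46.8% fell in WT (median 0.04) and 51.2% rose in wxe (median 0.01). These are descriptions over genes, which are not independent, and no test was made of them.

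**Figure D5:**
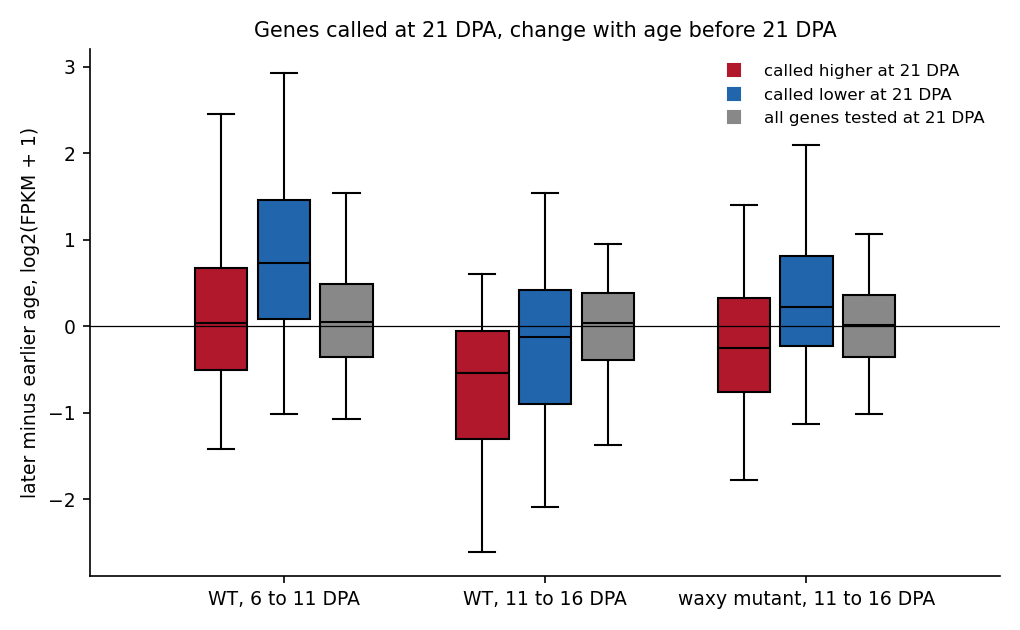
Change of mean log2(FPKM + 1) with age (vertical axis, later minus earlier) in libraries before 21 DPA for the genes called higher (red) or lower (blue) in wxe at 21 DPA and for all genes tested at 21 DPA (grey). Boxes span the quartiles with a line at the median, and whiskers the 5th to 95th percentile of genes. In WT the blue genes rose from 6 to 11 DPA (median 0.73) and the red genes fell from 11 to 16 DPA (median -0.54).

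The difference between the effects of wxe at 2 ages was tested as a contrast of its own. The effect at 21 DPA differed from that at 16 DPA in 20 of 15662 genes (0.128%), from that at 11 DPA in 2619 of 16533 (15.8%) and from that at 6 DPA in 4585 of 18020 (25.4%), at an adjusted p below 0.05. The 3 contrasts share the 21 DPA libraries. Among the starch and sugar genes the effect at 21 DPA was above that at 6 DPA by 1.49 for Sobic.002G160400, 1.41 for SbSBEIIb, 1.15 for SbSSIIC and 1.81 for SS2 (limma adjusted p = 1.08e-04, 5.69e-04, 5.68e-04 and 2.56e-04). The difference was negative for 4 sugar genes under the limit for testing at 21 DPA, at -1.37 for SbSWEET1, -1.99 for SbSWEET16, -1.14 for invertase 3 and -2.40 for SbAGA1 (limma adjusted p = 0.0396, 0.00181, 0.00499 and 0.0429). These 4 genes were called higher in wxe at 6 DPA. As their levels at 21 DPA were near the floor, their differences largely carry the effect at 6 DPA. For SbAGA1 the wxe libraries of 6 DPA lay far apart, at 5.28 and 35.6 FPKM, against 2.50 and 3.35 in WT. The study named many of the starch and sugar genes for their direction at 6 DPA on these samples. The sign of these differences was therefore partly set by that choice. For SbGBSSI the difference was 0.28 (SE 0.22, limma adjusted p = 0.383).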

How the data were processed

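RNA of dissected endosperm was sequenced from 2 genotypes at 4 ages, 2 libraries a group, 16 in all. The authors used STAR for alignment to version 3 of the sorghum genome and deposited FPKM per gene and library from Cufflinks, and the submitters' processing notes also name FastQC and Trimmomatic. Tool versions, annotation release and the handling of reads with several alignments are not given in the sources used here. All 16 columns were mapped to samples by library name, and 0 were left over. FPKM are not counts, so no count model was run, and Cuffdiff, which the study used, needs the reads. Counting error is not given for FPKM.

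Values were put on log2(FPKM + 1) and fitted with limma 3.58.1 in R 4.3.3, as a single 8-group model whose prior variance followed mean level (8 residual degrees of freedom). The contrast of wxe and WT at 21 DPA, two-sided, was adjusted by Benjamini-Hochberg over the 14966 genes whose mean exceeded 1 FPKM in WT or wxe, with the thresholds of the study (adjusted p under 0.05, log2 change of 0.58 or more in size). The difference of effects between ages was a contrast of the same model. The labels name 2 replicates a group without saying more of their origin than the pooling of panicles, so p-values measure the spread between these libraries.

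The members, gene lists and tests were chosen with earlier results of these data known. Named genes are every ID in the text of the study, 3 kafirin genes singled out by earlier results, and the 2 largest rises and 2 largest falls among called genes with no overlap. IDs matched 0 entries of the reference gene table, so lists by annotation, further markers of other tissues, the most abundant called genes without annotation, and sequences were not used here. The metabolome and grain data were left out. Alternatives were a pseudocount of 0.1, no filter, a filter at 5 FPKM, 21 DPA fitted alone, a replicate block, median-ratio and quantile scaling, no variance trend, the fold threshold on mean FPKM, and each 21 DPA library left out.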

Additional observations from a re-analysis of the deposited data

Results flagged for a closer look

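For the named genes, the effect of wxe on log2(FPKM + 1) at 21 DPA was compared with that at each younger age, and each difference given here passed limma's test of the difference itself at an adjusted p below 0.05. The 3 contrasts share the 21 DPA libraries, 0.128%, 15.8% and 25.4% of all genes tested passed them for 16, 11 and 6 DPA, and none of the differences from 16 DPA passed for a named gene other than those listed at 0. The genes were chosen with earlier results known.

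Most differences were from the effect at 6 DPA, and most were positive. The study named many of these genes for their direction in wxe at 6 DPA on these same samples. The sign of a difference from 6 DPA was therefore partly set by that choice. Among starch genes the effect at 21 DPA exceeded that at 6 DPA by 1.15 for Sobic.001G239500 (SbSSIIC), 1.0 for Sobic.003G230500 (SbAGPLS1), 1.49 for Sobic.002G160400 and 1.41 for Sobic.004G163700 (SbSBEIIb). Among sugar genes it did so by 1.81 for Sobic.001G344500 (SS2), 1.17 for Sobic.001G378300 (SS3), 0.65 for Sobic.002G291200 (UGPase), 0.97 for the sucrose transporter Sobic.001G488700 and 0.51 for Sobic.002G075900 (SbAGA2). The other 4 sugar genes, under 1 FPKM at 21 DPA in the mean of either genotype, went the other way, at -1.37 for Sobic.003G377700 (SbSWEET1), -1.99 for Sobic.001G377600 (SbSWEET16), -1.14 for Sobic.004G004800 (invertase 3) and -2.40 for Sobic.002G075800 (SbAGA1). At such low levels at 21 DPA, these 4 differences largely carry the effect at 6 DPA. For the lipid gene Sobic.001G403400 (MCAT) the difference was 0.92.

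The study named all 4 NAC genes as lower in wxe at 6 DPA. Their difference from 6 DPA was 1.23 for Sobic.003G105600, 1.45 for Sobic.009G086800, 1.42 for Sobic.002G192600 and 2.33 for Sobic.005G056300. Among the other transcription factor genes the difference from 6 DPA was 1.01 for the bZIP gene Sobic.002G054800, 1.52 for the ERF gene Sobic.007G147300, 1.58 for the MYB gene Sobic.002G308400 and 1.47 for the B3 gene Sobic.007G083900. It was negative for the ERF gene Sobic.009G170800 (-1.09), the ZF-HD gene Sobic.005G019800 (-1.87) and the MYB gene Sobic.003G267400 (-1.65), which was under 1 FPKM at 21 DPA. The kafirin genes differed from 6 DPA by 3.02 for Sobic.009G001600, 2.90 for Sobic.010G136100 and -1.74 for Sobic.005G186300. For the unannotated gene Sobic.003G326300, picked for its rise at 21 DPA, it was 4.54, and for the jmjC gene Sobic.001G175000 it was -1.78.

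Fewer named genes differed from the effect at 11 DPA. The difference was 1.37 for the sucrose transporter Sobic.001G488700, 1.35 for SbSWEET16 (Sobic.001G377600), 1.27 for the MYB gene Sobic.003G267400, 2.33 for globulin-2 (Sobic.001G059800), 1.57 for KCS1 (Sobic.001G482300), 1.10 and 0.63 for the NAC genes Sobic.009G086800 and Sobic.002G192600, 0.82 for the MYB gene Sobic.002G308400, 0.62 for Sobic.008G013000 and 2.29 for Sobic.003G326300. It was negative for the jmjC gene Sobic.001G175000 (-1.92) and the kafirin gene Sobic.010G136100 (-2.80).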

How the results depend on the processing

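The depth in reads is not known, and with 2 libraries a group each call rests on a spread shared across groups. Against 975 genes called (536 higher, 439 lower), 21 DPA fitted alone, with 2 residual degrees of freedom, gave 457 (232 and 225), and testing only the 9804 genes above 5 FPKM gave 348 higher. With each library left out, 587 to 824 genes were called, 309 to 560 higher and 264 to 362 lower. The replicate numbers are not a pairing by the labels, and their deviations correlated at 0.126 at 21 DPA and -0.270 to 0.235 at the other ages. With a replicate block, 881 genes were called (479 higher, 402 lower), and the effect differed between 21 and 16 DPA in 7 genes in place of 20, against 42 with quantile normalization. The cause was not tested.

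Among the named genes and the gene lists, directions turned only for values that were not called. A called gene had no overlap between the genotypes, so leaving out a library could not turn it. Quantile normalization gave -0.14 for SbAGPLS1 and -0.042 for UGPase. With a library left out, SbAGA2 ran from -0.084 to 0.22, globulin-1 from -0.42 to 1.27 and the median of the globulin genes from -0.094 to 1.499, each lowest without WT replicate 1 and highest without WT replicate 2. The ERF gene Sobic.009G170800 ran from -0.64 to 0.36 and the median of the other transcription factor genes from -0.31 to 0.026, with the positive values without WT replicate 2. The ERF gene Sobic.007G147300 ran from -0.0062 to 0.063, negative without wxe replicate 1.

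The shares followed in other ages were recomputed under the same alternatives, a choice made after seeing the data. Of the genes called higher, 88.7% were higher at 16 DPA, against 91.9% with the filter at 5 FPKM, 93.5% with 21 DPA alone and 91.7% with quantile normalization. With a library left out, the share called higher that fell in WT from 11 to 16 DPA ran from 73.6 to 77.7%, against 77.4% with all libraries. The share called higher that was higher at 16 DPA ran from 87.9 to 91.1%. Of the genes called lower, the share lower at 11 DPA ran from 85.2 to 90.3%, always below the 91.4% with all libraries. Their share higher at 6 DPA ran from 69.8 to 76.2%, always below the 79.0% with all libraries.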
